A study of Mus musculus with 2 samples.

Results

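Fc gamma receptors are the proteins by which marrow phagocytes sense IgG. The 7 genes described here are the activating receptors *Fcgr1*, *Fcgr3* and *Fcgr4*, the inhibitory receptor *Fcgr2b*, the signalling chains *Fcer1g* and *Tyrobp*, and the kinase *Syk*. They were taken by symbol from the 31053 genes of the files. They were measured by single-cell RNA sequencing of live 7-AAD- CD11b+ Ly6C+ Ly6G- bone marrow cells of F1 mice (C57BL/6;Balb/c). Radiation control (RC) mice received 300 rads, and mice with severe aplastic anemia (SAA) received 300 rads and 65000000 B6 splenocytes, so irradiation was shared by both groups and no unirradiated sample was analysed here. Marrow from 3 mice per group was pooled into 1 library, and no age is given in the labels.

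Activating Fc gamma receptors bind the constant part of IgG and pass the signal on through an immunoreceptor tyrosine-based activation motif (ITAM), carried by the common gamma chain that *Fcer1g* encodes. Src family kinases phosphorylate the motif, and Syk docks on it and starts phagocytosis and cytokine release. The inhibitory receptor FcγRIIB, encoded by *Fcgr2b*, instead carries an inhibitory motif that recruits phosphatases, and the balance of the activating and inhibitory kinds sets how readily a monocyte responds to immune complexes. DAP12, encoded by *Tyrobp*, is a second ITAM adaptor, which serves TREM and other receptors and signals through Syk as well.

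Each unique molecular identifier (UMI) stands for 1 captured transcript. Barcodes with at least 1000 detected genes were kept, 662 of 798 in RC and 729 of 825 in SAA, with medians of 4822.5 and 6514 UMIs. A barcode was called monocyte-like when its UMIs of *Csf1r*, *Ccr2*, *F13a1*, *Ms4a6c* and *Ly86* together outnumbered those of 8 granule and granulocyte genes, and granulocyte-like in the opposite case. This gave 342 RC and 285 SAA monocyte-like cells (1358365 and 2028301 UMIs) and 318 and 421 granulocyte-like cells (2479896 and 3315632 UMIs). Granulocyte-like cells were present although the sort was for Ly6G- cells. The monocyte genes summed to 4421 and 2873 UMIs per 1000000 (CPM) in the monocyte-like cells of RC and SAA. In the granulocyte-like cells they summed to 69.0 and 150.8 CPM, and the rule itself sets this order of the classes. Of the SAA barcodes, 39 carried T or NK cell markers, against 1 in RC, and 17 of these 39 had been placed in the classes compared here. The libraries had 1 barcode sequence in common. With 1 library per group no test between RC and SAA was possible, and every 95% interval below covers counting error only, not the differences between mice. Fewer cells with a transcript and less transcript per cell cannot be told apart in the summed values.

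On GRCm38, *Fcgr2b* (ENSMUSG00000026656, chr1:170958617-170976547), *Fcgr4* (ENSMUSG00000059089, chr1:171018920-171029761), *Fcgr3* (ENSMUSG00000059498, chr1:171051174-171064935) and *Fcer1g* (ENSMUSG00000058715, chr1:171229572-171234365) lie together within 275.7 kb of chromosome 1. *Fcgr1* (ENSMUSG00000015947) lies alone at chr3:96282909-96293969, *Tyrobp* (ENSMUSG00000030579) at chr7:30413760-30417585 and *Syk* (ENSMUSG00000021457) at chr13:52583173-52648792. All 7 are protein coding. An antisense gene, *Gm38204*, overlaps *Fcgr2b*, and small RNA genes on the same strand lie within *Fcgr3* (*Mir6546*) and *Fcgr4* (*Gm26110*). Of all 90-base windows in the first 500 bases of *Fcgr3* transcripts, 5.11% also occur in *Fcgr2b*, and 1.48% of those of *Fcgr2b* occur in *Fcgr3*, so the split of reads between this pair is uncertain for that fraction. The other 5 genes shared no window of this length with any other gene.

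The 250 bases before the RefSeq start sites of *Fcgr1*, *Fcgr4* and *Fcgr2b* (GRCm38.p6) are shown because the first pair moved together between the libraries and the last did not. Capitals mark matches, on either strand, to the interferon gamma-activated site (GAS, TTCNNNGAA), the interferon-stimulated response element (ISRE, GAAA followed after any 2 bases by GAAA) and the core site of the myeloid factor PU.1 (GAGGAA). The *Fcgr1* window (chr3:96293970-96294219, minus strand) held a GAS match starting 109 bases before the start and a PU.1 match at 55 bases. The *Fcgr4* window (chr1:171018676-171018925, plus strand) held an ISRE match at 73 bases and a PU.1 match at 22 bases. The *Fcgr2b* window (chr1:170976072-170976321, minus strand) held none of the 3 motifs, and no match overlapped another in the windows shown. In windows not shown, PU.1 matches lay 6 and 15 bases before the 2 start sites of *Fcgr3* and 9 bases before the second of *Syk*. Neither gene reached a 2-fold difference in either class, and whether a PU.1 match bears on the levels was not tested. The *Fcer1g* window held none of the motifs. Among 32851 promoters of this length, 7.02% held the GAS letters, 2.98% the ISRE letters and 23.3% the PU.1 letters. A match describes the letters only and is no measured binding site.
Fcgr1: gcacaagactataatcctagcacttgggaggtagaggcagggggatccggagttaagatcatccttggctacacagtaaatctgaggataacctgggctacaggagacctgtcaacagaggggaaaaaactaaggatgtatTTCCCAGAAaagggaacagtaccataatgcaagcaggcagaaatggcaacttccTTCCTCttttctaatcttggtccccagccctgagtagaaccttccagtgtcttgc
Fcgr4: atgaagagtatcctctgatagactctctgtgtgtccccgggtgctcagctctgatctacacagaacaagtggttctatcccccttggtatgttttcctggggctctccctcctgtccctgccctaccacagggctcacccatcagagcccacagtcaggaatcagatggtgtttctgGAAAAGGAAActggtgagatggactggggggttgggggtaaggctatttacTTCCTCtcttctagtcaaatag
Fcgr2b: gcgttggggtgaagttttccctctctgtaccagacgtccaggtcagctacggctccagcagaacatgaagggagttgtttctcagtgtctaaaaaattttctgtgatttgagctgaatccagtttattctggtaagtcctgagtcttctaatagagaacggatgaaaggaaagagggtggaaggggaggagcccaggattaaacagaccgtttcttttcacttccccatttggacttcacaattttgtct

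*Fcgr1* and *Fcgr4* were higher in monocyte-like cells of SAA than of RC, *Fcgr3* differed little, *Fcgr2b* did not differ beyond counting error, and the chains and *Syk* were lower. *Fcgr1*, which encodes the high-affinity receptor CD64, had 25 UMIs (18.4 CPM, 11.9–27.2) in RC against 308 UMIs (151.9 CPM, 135.4–169.8) in SAA. The SAA to RC ratio was 8.25 (5.48–12.95). *Fcgr4*, an activating receptor of mice that binds IgG2 subclasses, had 9 UMIs (6.63 CPM, 3.03–12.6) in RC against 168 UMIs (82.8 CPM, 70.8–96.3) in SAA. Its ratio was 12.5 (6.43–27.8), and for neither receptor did the intervals of the libraries overlap. Over the alternatives the log2 ratio of *Fcgr4* ran from 2.80 with no filter on barcodes to 4.24 after every cell had been thinned to 2600 UMIs, against 3.64 here. Both receptors lay in the top of all compared genes, with 98.8% and 99.2% of the 8662 genes at a lower ratio.

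*Fcgr3*, the low-affinity activating receptor, measured 161.2 CPM (140.6–184.0) in monocyte-like cells of RC against 203.1 CPM (184.0–223.7) for SAA. The ratio of 1.26 (1.07–1.49) fell short of 2-fold, and after thinning it came to 0.081 on the log2 scale. *Fcgr2b* had 158 UMIs (116.3 CPM, 98.9–135.9) in RC against 225 UMIs (110.9 CPM, 96.9–126.4) in SAA. The levels overlapped, with a ratio of 0.954 (0.775–1.18). This interval includes equal levels and leaves out a 2-fold difference in either direction.

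**Figure D1:**
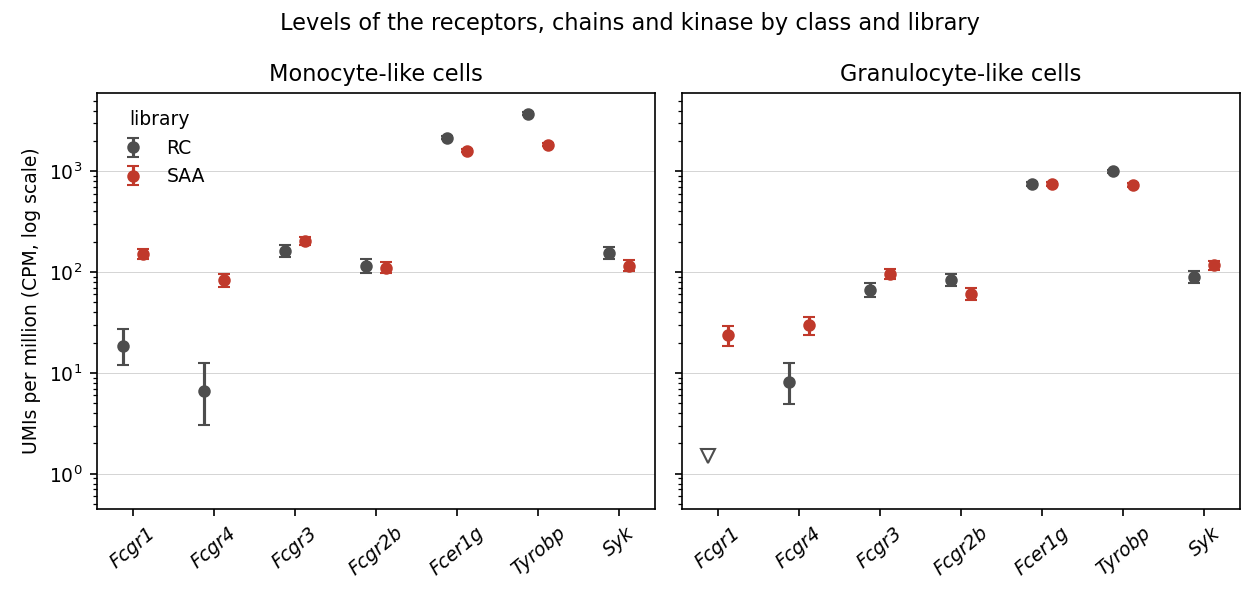
Summed level (CPM, log axis) of the 7 genes in monocyte-like (left) and granulocyte-like (right) cells of the RC (grey) and SAA (red) libraries, 1 library each. Points are CPM with exact Poisson 95% intervals, and the open triangle is the upper limit, 1.49 CPM, for *Fcgr1* with 0 UMIs in granulocyte-like cells of RC. *Fcgr1* and *Fcgr4* of SAA stand above RC in both panels.

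The chains were abundant and went the other way. *Fcer1g*, the chain that the activating receptors need for surface display and signalling, had 2930 UMIs in RC and 3238 in SAA monocyte-like cells. Its level was 2157 CPM (2080–2237) and 1596 CPM (1542–1652), a ratio of 0.740 (0.704–0.778). *Tyrobp* measured 3734 CPM (3632–3838) in RC but 1840 CPM (1781–1900) in SAA, a ratio of 0.493 (0.472–0.514). *Syk*, the kinase that reads both chains, measured 153.9 CPM (133.7–176.2) and 115.9 CPM (101.5–131.7), a ratio of 0.753 (0.622–0.912). The 5 monocyte genes that define the class were lower in SAA as well, at ratios from 0.363 for *F13a1* to 0.872 for *Ms4a6c*, and their part in the lower chains was not tested.

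A gene was called when its ratio reached 2-fold and its interval left out 1, among genes with at least 20 UMIs over both libraries, which all 7 genes had in each class. In monocyte-like cells *Fcgr1* and *Fcgr4* were called higher, 2 of 7 genes, where 6.85% of all genes were. *Tyrobp* was called lower, 1 of 7, where 8.14% of all genes were. The call of *Tyrobp* rests on a value at the limit, since its log2 ratio of -1.02 ran from -1.04 to -0.93 over 12 alternatives and fell short of 2-fold in 6 of them, -0.96 with TMM factors among these. Over all compared genes the median log2 ratio came to -0.06.

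Part of the macrophage markers were higher in monocyte-like cells of SAA as well. Summed over the 6 markers, monocyte-like cells had 60.4 CPM in RC but 186.4 CPM in SAA, and 3 of the 6 had an interval above 1. These were the complement genes *C1qa*, *C1qb* and *C1qc*, with 1, 0 and 0 UMIs in RC and 60, 135 and 65 in SAA. *Adgre1*, which encodes F4/80, had a ratio of 0.896 (0.660–1.22), and the intervals of *Vcam1* (0.804–34.2) and *Siglec1* (0.192–14.8) also included 1. In granulocyte-like cells the summed list was lower in SAA instead, going from 110.1 to 32.6 CPM, and *Vcam1* held most of its UMIs, 265 in RC and 78 in SAA. Leaving out monocyte-like barcodes with 2 or more UMIs of the list, 13 in RC and 50 in SAA, gave log2 ratios of 2.93 for *Fcgr1* and 3.30 for *Fcgr4*, against 3.04 and 3.64 with all cells. The same rule left out 61 granulocyte-like barcodes in RC and 15 in SAA. Among the dendritic cell markers *Siglech* and *Zbtb46* were at 0 in both libraries, *Xcr1* had 0 UMIs in RC and 1 in SAA, and *Flt3* had 10 and 0. *Irf8*, which held most of the RC sum of this list, was lower in SAA. It went from 260.6 to 222.4 CPM, a ratio of 0.853 (0.741–0.983). *Bst2*, also an interferon-stimulated gene, had a ratio of 3.97 (3.33–4.75), which took the summed list from 377.7 to 658.2 CPM, and its part was not tested.

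In granulocyte-like cells the same receptors were higher in SAA as well. *Fcgr1* had 0 UMIs in RC, with an exact Poisson upper limit of 1.49 CPM, against 78 UMIs (23.5 CPM, 18.6–29.4) in SAA. Against a floor of 3 UMIs over the RC cells it was 19.4-fold higher, or 4.28 on the log2 scale, with an exact lower limit of 15.4-fold. Thinning lowered the log2 value against the floor to 2.36. *Fcgr4* stood at 8.06 CPM (4.93–12.5) and 29.6 CPM (24.0–36.0), a ratio of 3.66 (2.25–6.26). Only these genes were called higher, 2 of 7 where 6.12% of all genes were, and 0 of 7 were called lower where 4.51% were. *Fcgr3* stood at 66.9 CPM (57.1–77.9) and 95.3 CPM (85.1–106.4), a ratio of 1.42 (1.18–1.73).

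*Fcgr2b* was lower in granulocyte-like cells of SAA, with 83.1 CPM (72.1–95.2) in RC against 60.9 CPM (52.8–69.9). Its ratio of 0.733 (0.601–0.895) left out 1. *Fcer1g* did not differ beyond counting error, at 747.6 CPM (714.0–782.4) and 744.7 CPM (715.6–774.6), a ratio of 0.996 (0.937–1.06). *Tyrobp* was lower at 0.733 (0.693–0.776), going from 998.0 to 731.7 CPM. *Syk* was higher, at 89.1 CPM (77.8–101.7) and 117.0 CPM (105.7–129.3), a ratio of 1.31 (1.11–1.56). Of the monocyte genes that define the class, *Ccr2*, *Ms4a6c* and *Ly86* were also higher in these cells, at ratios from 3.43 to 3.80. The others, *Csf1r* at 1.09 (0.512–2.41) and *F13a1* at 0.876 (0.638–1.21), had intervals that include 1. Without barcodes that carried genes of both classes, *Fcgr1* against the floor was 3.83 on the log2 scale, and 4.28 with all cells. The part of such barcodes in the rest was not tested.

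**Figure D2:**
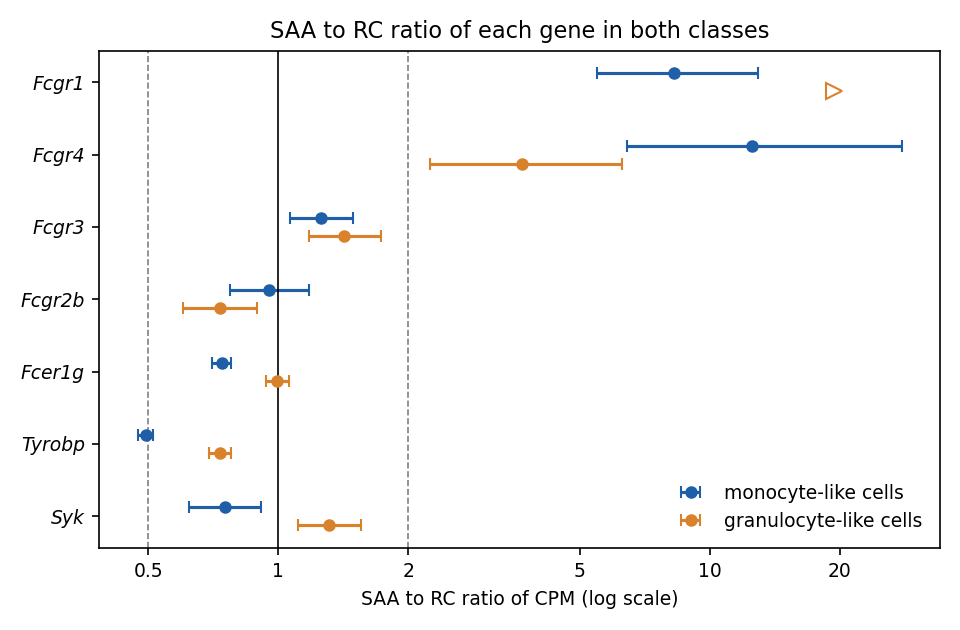
SAA to RC ratio of CPM (log axis) of each gene in monocyte-like (blue) and granulocyte-like (orange) cells, with exact conditional binomial 95% intervals. The solid line marks a ratio of 1 and the dashed lines 2-fold, and the open triangle is the lower bound of 19.4 for *Fcgr1* in granulocyte-like cells. *Fcgr1* and *Fcgr4* lie right of 2-fold in both classes, and *Syk* lies on opposite sides of 1.

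The make-up of the receptors was compared as the ratio of activating (*Fcgr1*, *Fcgr3* and *Fcgr4* together) to inhibitory (*Fcgr2b*) UMIs. Capture differs by gene, so this ratio is read only between libraries and cells and not as a ratio of molecules. Monocyte-like cells had 253 activating and 158 inhibitory UMIs in RC, a ratio of 1.60 (1.31–1.97), and 888 and 225 in SAA, a ratio of 3.95 (3.41–4.59). The SAA ratio was 2.46-fold that of RC (1.91–3.18). Granulocyte-like cells went from 0.903 (0.737–1.11) in RC to 2.44 (2.06–2.88) in SAA, or 2.70-fold (2.07–3.52). In both classes the balance thus lay further on the activating side in SAA, and the intervals of the libraries did not overlap.

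*Fcgr1* and *Fcgr4* carried most of this shift in monocyte-like cells. *Fcgr1* made up 6.08% of the 4 receptors' UMIs in RC and 27.7% in SAA, and *Fcgr4* 2.19% and 15.1%. *Fcgr3* went from 53.3% to 37.0% and *Fcgr2b* from 38.4% to 20.2%. With *Fcgr3* alone as the activating receptor the change was 1.32-fold (1.01–1.73), and with *Fcgr3* and *Fcgr4* but no *Fcgr1* it was 0.84 on the log2 scale, against 1.30 with all 3. In granulocyte-like cells *Fcgr3* alone over *Fcgr2b* changed by 1.94-fold (1.47–2.57), so there the lower *Fcgr2b* and higher *Fcgr3* entered as well. Thinning moved the change in monocyte-like cells to 0.93 on the log2 scale.

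Monocyte-like cells were divided by cell cycle UMIs into 94 cycling and 248 other cells in RC and 138 and 147 in SAA. Granulocyte-like cells were divided into early cells, in which *Elane*, *Mpo*, *Prtn3* and *Ctsg* outnumbered *Camp*, *Ngp* and *Fcnb* (51 in RC and 32 in SAA), and late cells (267 and 389). These are ranges of a score and not cell types, and 12 RC and 47 SAA monocyte-like cells lay within 2-fold of the cycling limit of 10 cycle gene UMIs per 10000. A barcode was counted as mixed, with genes of both classes, when 5 times its lesser class sum exceeded the greater. Mixed barcodes numbered 25 in RC and 60 in SAA among cycling and 9 and 21 among other monocyte-like cells. Their part in the differences between subsets was not tested. The activating to inhibitory ratio was higher in SAA in each of the 4 subsets, by 3.95-fold (2.51–6.19) in cycling and 2.01-fold (1.45–2.78) in other monocyte-like cells. In early and late granulocyte-like cells it was higher by 3.57-fold (2.06–6.19) and 2.42-fold (1.77–3.30). The share of *Fcgr2b* in SAA ran from 19.6% in cycling monocyte-like to 29.6% in late granulocyte-like cells. In RC it ran from 34.6% to 57.1%, and whether the ranges differ was not tested.

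**Figure D3:**
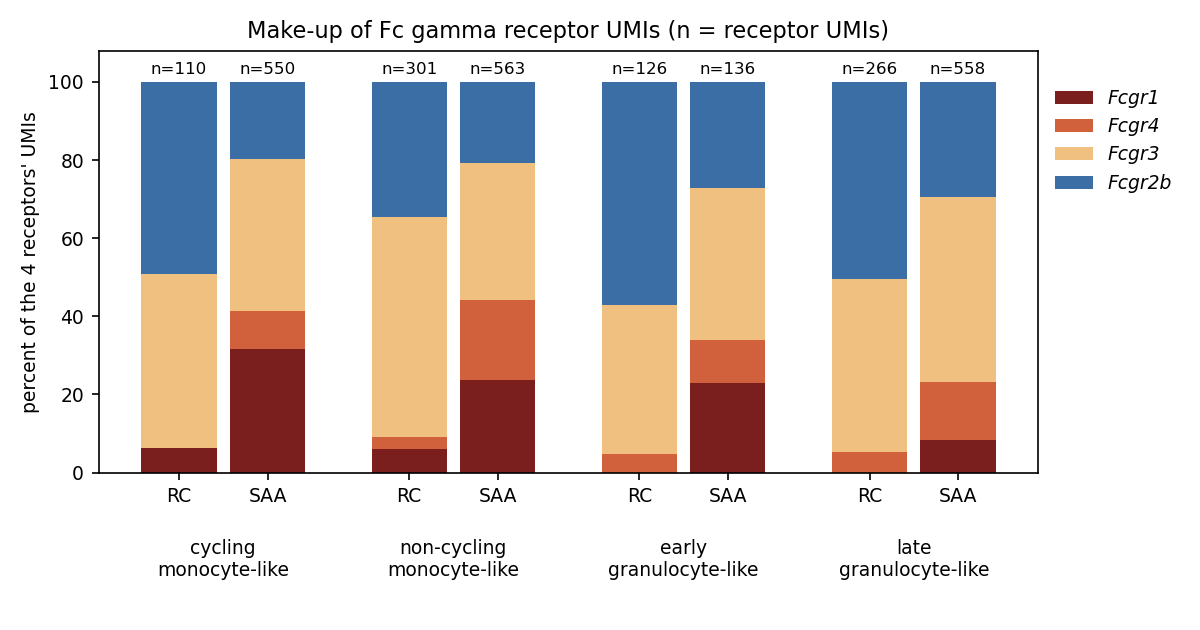
Percent of the UMIs of the 4 Fc gamma receptors that belong to each receptor (bars stack to 100%), in the subsets of monocyte-like and granulocyte-like cells of RC and SAA. The number of receptor UMIs stands above each bar, from 110 in cycling monocyte-like cells of RC to 563 in non-cycling ones of SAA, and the blue *Fcgr2b* part is smaller in SAA in all 4 pairs.

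Of the 4 receptors, *Fcgr4* had the widest gap between the monocyte-like subsets of SAA. In SAA it stood at 43.3 CPM (32.5–56.5) in cycling and 145.9 CPM (120.3–175.2) in other cells, a cycling to non-cycling ratio of 0.297 (0.211–0.414). In RC it had 0 UMIs in the 94 cycling cells, which at the limit of 3 cells allows up to 3.19% of cells with a UMI, and 9 UMIs in the others. In cycling cells it was 8.18-fold higher in SAA against the floor of 3 UMIs, with an exact lower limit of 6.43-fold. In the others the ratio was 12.8 (6.53–28.8). *Fcgr1* was spread more evenly, at 139.6 CPM in cycling and 171.5 CPM in other cells of SAA, a ratio of 0.814 (0.646–1.03) that includes equal levels. *Fcgr1* was higher in SAA by 11.3-fold (5.37–28.5) in cycling and 7.54-fold (4.59–13.1) in other cells.

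The value of *Fcgr3* differed by subset. In cycling monocyte-like cells it measured 86.4 CPM in RC against 171.6 CPM for SAA, a ratio of 1.99 (1.45–2.77). In the other cells it stood at 214.8 and 253.4 CPM, a ratio of 1.18 (0.956–1.46) that includes 1, and whether the subsets differ was not tested. *Fcgr3* was lower in cycling than in other cells in each library, at ratios of 0.402 (0.287–0.556) in RC and 0.677 (0.556–0.826) in SAA. For *Fcgr2b* the interval included equal levels in either subset, at 0.909 (0.650–1.29) in cycling and 1.14 (0.867–1.50) in other cells. *Syk* was lower in SAA in non-cycling cells, at 0.673 (0.518–0.871), while in cycling cells the ratio was 1.07 (0.778–1.48).

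Of the chains, *Tyrobp* was lower in SAA in cycling and in other monocyte-like cells, at 0.573 (0.537–0.611) and 0.480 (0.452–0.510). *Fcer1g* was lower by a like amount in each, at 0.779 (0.721–0.842) and 0.783 (0.731–0.839). In early granulocyte-like cells, in contrast, *Fcer1g* was higher in SAA at 1.49 (1.22–1.81), and in late cells it was 0.900 (0.844–0.960). The early cells came from only 51 and 32 barcodes, of which 7 in RC and 15 in SAA were mixed, against 0 of the late cells. The part of the mixed barcodes in the values of early cells was not tested. *Fcgr2b* went from 125.7 CPM in early cells of RC down to 80.2 CPM for SAA, with a ratio of 0.638 (0.417–0.961), while in late cells the ratio was 0.823 (0.651–1.04). *Fcgr1* of SAA was higher in early than in late granulocyte-like cells, at 67.2 and 16.5 CPM, a ratio of 4.08 (2.51–6.56).

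**Figure D4:**
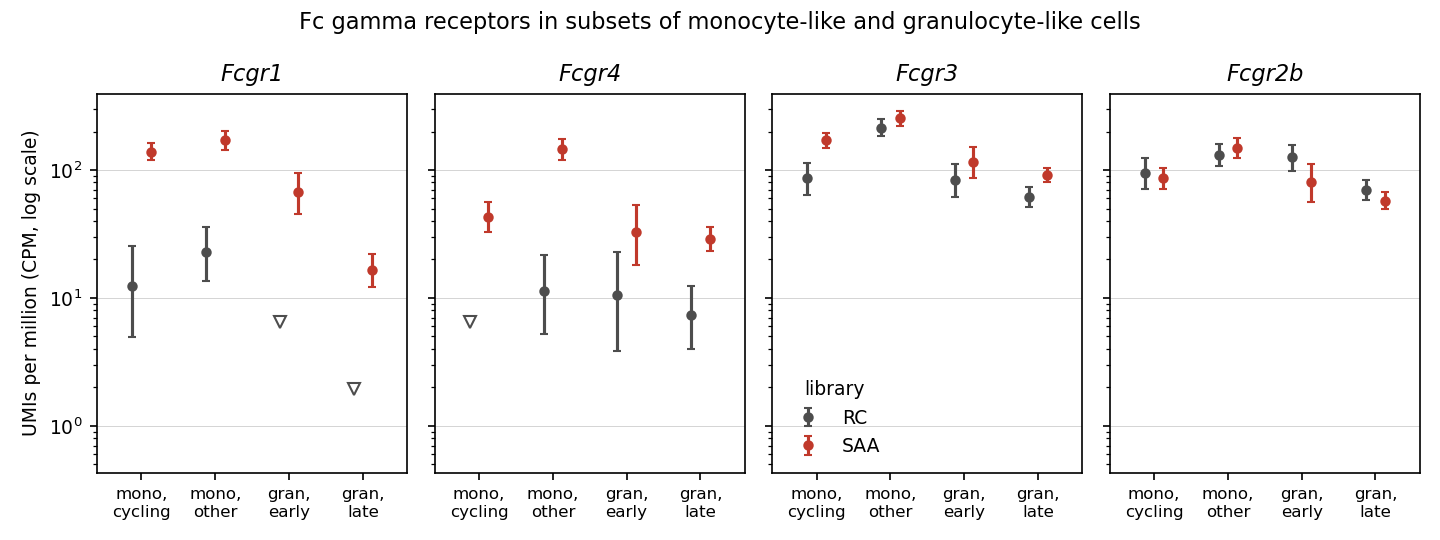
Level (CPM, log axis) of each Fc gamma receptor in 4 subsets of cells, cycling and other monocyte-like (mono) and early and late granulocyte-like (gran), in RC (grey) and SAA (red). Bars are exact Poisson 95% intervals and open triangles the upper limits of subsets with 0 UMIs. *Fcgr1* and *Fcgr4* of SAA lie above RC in every subset, while *Fcgr2b* of SAA lies below RC in early granulocyte-like cells (80.2 against 125.7 CPM).

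Between the classes, the chains and *Fcgr3* were higher in monocyte-like than in granulocyte-like cells of either library. In RC the monocyte-like to granulocyte-like ratio was 3.74 (3.57–3.93) for *Tyrobp*, 2.89 (2.72–3.06) for *Fcer1g* and 2.41 (1.96–2.96) for *Fcgr3*. *Fcgr1* was 15.2-fold higher against the floor of 3 UMIs, with an exact lower limit of 11.5-fold. These 4 of 7 genes passed 2-fold, where 22.9% of all genes did. In SAA 5 of 7 genes did, where 19.4% of all genes did. The ratios were 6.45 (5.02–8.39) for *Fcgr1*, 2.80 (2.17–3.63) for *Fcgr4*, 2.51 (2.39–2.65) for *Tyrobp*, 2.14 (2.03–2.26) for *Fcer1g* and 2.13 (1.84–2.48) for *Fcgr3*. *Fcgr4* had no such excess in RC, at 0.821 (0.329–1.89). *Syk* was higher in monocyte-like cells of RC at 1.73 (1.42–2.10) while in SAA the ratio was 0.990 (0.838–1.17), and *Fcgr2b* was higher at 1.40 (1.13–1.73) and 1.82 (1.50–2.21).

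Since activating receptors share *Fcer1g*, their UMIs were also set against it, a ratio chosen after the levels had been seen. The summed activating receptors went from 186.3 to 437.8 CPM in monocyte-like cells, a ratio of 2.35 (2.04–2.71), while *Fcer1g* was lower. Monocyte-like cells had 8.63 activating receptor UMIs per 100 UMIs of *Fcer1g* in RC and 27.4 in SAA, a 3.18-fold difference (2.73–3.70). In granulocyte-like cells the numbers were 10.0 and 19.9, a 1.99-fold difference (1.66–2.39). The chain remained the more counted transcript in each case.

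Per cell, SAA monocyte-like cells more often held an activating receptor UMI. The medians of 3347.5 UMIs in RC and 6082 in SAA differ, so cells were thinned to 2600 UMIs, which left out 76 RC and 18 SAA cells. An *Fcgr1* UMI was found in 12 of 266 thinned RC cells (4.51%, 2.35–7.75%) and 72 of 267 SAA cells (27.0%, 21.7–32.7%). Without thinning the shares were 6.73% and 57.9%. An *Fcgr4* UMI was found in 1.50% (0.411–3.81%) and 21.7% (16.9–27.2%) of thinned cells, and in 2.63% and 35.1% without thinning. *Fcgr3*, at 37.2% and 36.0%, and *Fcgr2b*, at 23.3% and 24.0%, were found in like shares of thinned cells, and in 43.6% and 65.6% and in 32.7% and 45.3% without thinning. The SAA cells with T or NK markers, at a median depth of 4629 UMIs, served as background and held *Fcgr1*, *Fcgr4* and *Fcgr2b* in 0 of 39 cells, which allows shares of up to 7.69%.

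Chains and kinase were found in most or many cells of either library. After thinning, 98.9% of RC monocyte-like cells held *Fcer1g*, against 95.9% in SAA, and *Tyrobp* was found in 100% and 96.3%. *Syk* was found in 36.5% (30.7–42.6%) and 25.8% (20.7–31.5%). Without thinning the shares of *Syk* had the other order, 45.0% and 50.5%, while those of *Fcer1g* were 99.7% and 97.2% and those of *Tyrobp* 99.7% and 96.8%. In the T or NK marked cells of SAA *Fcer1g* was found in 25.6% and *Tyrobp* in 17.9% without thinning, at 180.8 and 191.1 CPM, and NK cells use both chains themselves. In granulocyte-like cells *Fcgr1* was found in 0 of 318 RC cells, which allows up to 0.943%, and in 51 of 421 SAA cells (12.1%), or in 4.60% (2.79–7.09%) after thinning. *Fcgr4* was found there in 5.97% and 18.5% of cells, or in 2.21% (0.892–4.50%) and 7.51% (5.16–10.5%) after thinning. The thinned shares of both receptors lie below the 10.3% that 0 of 29 thinned T or NK marked cells allow, so neither can be told apart from free RNA by this measure.

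Combinations within a cell were also described after these values had been seen. In thinned monocyte-like cells an activating receptor without *Fcgr2b* was seen in 30.8% (25.3–36.8%) of the RC and 44.9% (38.9–51.1%) of the SAA cells. *Fcgr2b* without an activating receptor was found in 13.2% (9.34–17.8%) and 8.24% (5.24–12.2%), and both kinds in 10.2% and 15.7%. Neither kind was found in 45.9% and 31.1%, so at this depth the absence of a UMI is common. At least 3 of the 4 receptors were found in 4 of 266 RC and 25 of 267 SAA cells, of which 20 were not cycling. In thinned monocyte-like cells of SAA, *Fcgr4* was found in 29.2% of the 72 cells with an *Fcgr1* UMI and in 19.0% of the 195 without. By subset the shares were 20.7% of 29 and 8.49% of 106 cycling cells, and 34.9% of 43 and 31.5% of 89 other cells. These differences were not tested.

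The genes with the pattern nearest to each receptor were sought over the 8 library and subset points, among 7099 genes with at least 100 UMIs, by the distance between centred log2(CPM + 10) values. Nearest to *Fcgr1* were *Bst1* (distance 0.90), which encodes the ectoenzyme CD157, *Pla2g16* (1.01), a phospholipase, and *Gbp3* (1.06), an interferon-inducible GTPase. In non-cycling monocyte-like cells *Bst1* went from 17.7 CPM in the RC library to 226.5 CPM. Nearest to *Fcgr4* were *Batf2* (0.79), a transcription factor of the AP-1 kind, *Socs3* (0.97), a feedback inhibitor of cytokine receptors, and *Gm4841* (1.10). There *Batf2* went from 2.53 to 74.2 CPM. *Fcgr3* lay nearest to *Plekhb2* (0.43), *Jund* (0.48), another AP-1 member, and *Tbc1d14* (0.48), and *Fcgr2b* to *Phospho2* (0.38), *A630001G21Rik* (0.38) and *Nfs1* (0.41), a cysteine desulfurase. The distances describe 8 points of 2 libraries and carry no test.

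Of 85 genes listed around the receptors, 55 had enough UMIs in monocyte-like and 49 in granulocyte-like cells. In monocyte-like cells 4 were called higher (7.27%, where 6.85% of all genes were) and 9 lower (16.4%, where 8.14% were), with a median log2 ratio of -0.25 against -0.06 over all genes. In granulocyte-like cells 8 were called higher (16.3%, where 6.12% of all genes were) and 1 lower (2.04%, where 4.51% were), with a median of 0.17 against 0.04. The 8 genes called higher in granulocyte-like cells became 5 at a minimum of 50 UMIs and 2 after thinning, and the 4 in monocyte-like cells became 2 without barcodes marked by macrophage genes. The ligand list, with the IgG heavy chain genes *Ighg1*, *Ighg2b*, *Ighg2c* and *Ighg3* and the pentraxins *Apcs*, *Crp* and *Ptx3*, had 0 UMIs in both classes.

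Of 13 other Fc receptors only *Fcgrt* and *Trim21* had enough UMIs. *Fcgrt*, the neonatal receptor that recycles IgG, had 74 UMIs in RC but 20 in SAA monocyte-like cells, a ratio of 0.181 (0.105–0.300). *Trim21*, a cytosolic antibody receptor, had a ratio of 1.56 (0.953–2.64) there and 3.04 (1.77–5.51) in granulocyte-like cells. *Ms4a2* and *Fcrla* held 13 and 6 UMIs in all and were not compared.

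Other receptors signal through DAP12 or the gamma chain. Of 13 compared in monocyte-like cells, 5 were called lower (38.5%, where 8.14% of all genes were) and 2 higher (15.4%, where 6.85% were). The lower calls numbered 3 in 6 of 14 alternatives, TMM factors and thinning among them, and the higher calls 1 in 4 of 14. Lower were *Cd300lb* at 0.146 (0.0876–0.233), *Pilrb2* at 0.251 (0.129–0.465), *Trem2*, a lipid receptor of phagocytes, at 0.276 (0.171–0.434), and *Clec4d* at 0.419 (0.170–0.981). *Sirpb1c*, at 0.499 (0.375–0.664), was the fifth and fell outside the rule for named genes. Higher were *Clec5a*, a DAP12 partner of myeloid cells, at 2.79 (2.06–3.84), and *Trem3* at 2.01 (1.33–3.10). *Pira2*, an activating receptor for MHC class I that uses the gamma chain, had a ratio of 1.32 (1.15–1.52).

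Next were the kinases near the receptor, among them the Src family kinases that phosphorylate the ITAM. In monocyte-like cells 0 of 5 kinases compared were called, where 6.85% of all genes were called higher and 8.14% lower. The ratios were 1.08 (0.960–1.21) for *Lyn* and 0.575 (0.460–0.718) for *Fgr*. The Tec family kinases further along had ratios of 0.890 (0.670–1.19) for *Btk* and 0.706 (0.507–0.984) for *Tec* there. In granulocyte-like cells *Lyn* was called higher at 2.14 (1.83–2.51), from 88.3 to 188.8 CPM. *Fyn*, with 1 UMI in RC and 37 in SAA, was the other kinase called there and was chosen after its values had been seen. These were 2 of 5 kinases compared (40%, where 6.12% of all genes were called higher). Of the T or NK marked barcodes 7 had been placed in the granulocyte-like class of SAA. The 2 calls of kinases became 1 without these barcodes, without macrophage-marked barcodes and at a minimum of 50 UMIs. In this class *Vcam1* held most UMIs of the macrophage list. After thinning 0 kinases were called higher in granulocyte-like and 1 in monocyte-like cells. *Fgr* had a ratio of 1.55 (1.26–1.93), *Btk* 0.870 (0.683–1.11) and *Tec* 0.939 (0.629–1.41).

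Of 17 downstream genes in monocyte-like cells 0 were called, where 6.85% of all genes were called higher and 8.14% lower. Of 16 in granulocyte-like cells 0 were called, where 6.12% were called higher and 4.51% lower. Short of 2-fold, 6 intervals lay below 1 and 1 above it in monocyte-like cells, and 5 lay above 1 and 0 below it in granulocyte-like cells. The most counted were the GTPases *Rac1* and *Rac2*, which remodel actin during uptake, the kinase *Prkcd* and the adaptor *Grb2*. Their ratios ran from 0.776 (0.695–0.866) for *Prkcd* to 1.02 (0.873–1.20) for *Grb2* in monocyte-like cells. In granulocyte-like cells they ran from 1.08 (1.02–1.14) for *Rac2* to 1.39 (1.20–1.61) for *Prkcd*.

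Of the 18 inhibitory genes, 3 were called lower (16.7%, where 8.14% of all genes were) and 2 higher (11.1%, where 6.85% were) in monocyte-like cells. The higher calls numbered 1 after thinning and without macrophage-marked barcodes. Lower were the inhibitory receptors *Cd300a* at 0.301 (0.236–0.380), *Ceacam1* at 0.361 (0.269–0.480) and *Clec4a2* at 0.366 (0.304–0.441). Higher were *Pecam1*, which encodes the adhesion molecule CD31, at 3.05 (1.46–7.14), and the adaptor *Dok2* at 2.37 (1.49–3.90). *Ptpn6*, the phosphatase SHP-1, and *Cbl*, a ubiquitin ligase that acts on Syk, had intervals that include 1, at 1.08 (0.953–1.22) and 0.926 (0.814–1.05). *Ceacam1* was higher in granulocyte-like cells of SAA at 1.82 (1.63–2.02), short of 2-fold, while *Pecam1* was called higher there as well at 4.86 (1.69–19.2). *Pirb* and *Lilrb4a* were also called higher in granulocyte-like cells, at 2.48 (1.95–3.17) and 3.80 (2.08–7.50), and were named after their values had been seen.

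**Figure D5:**
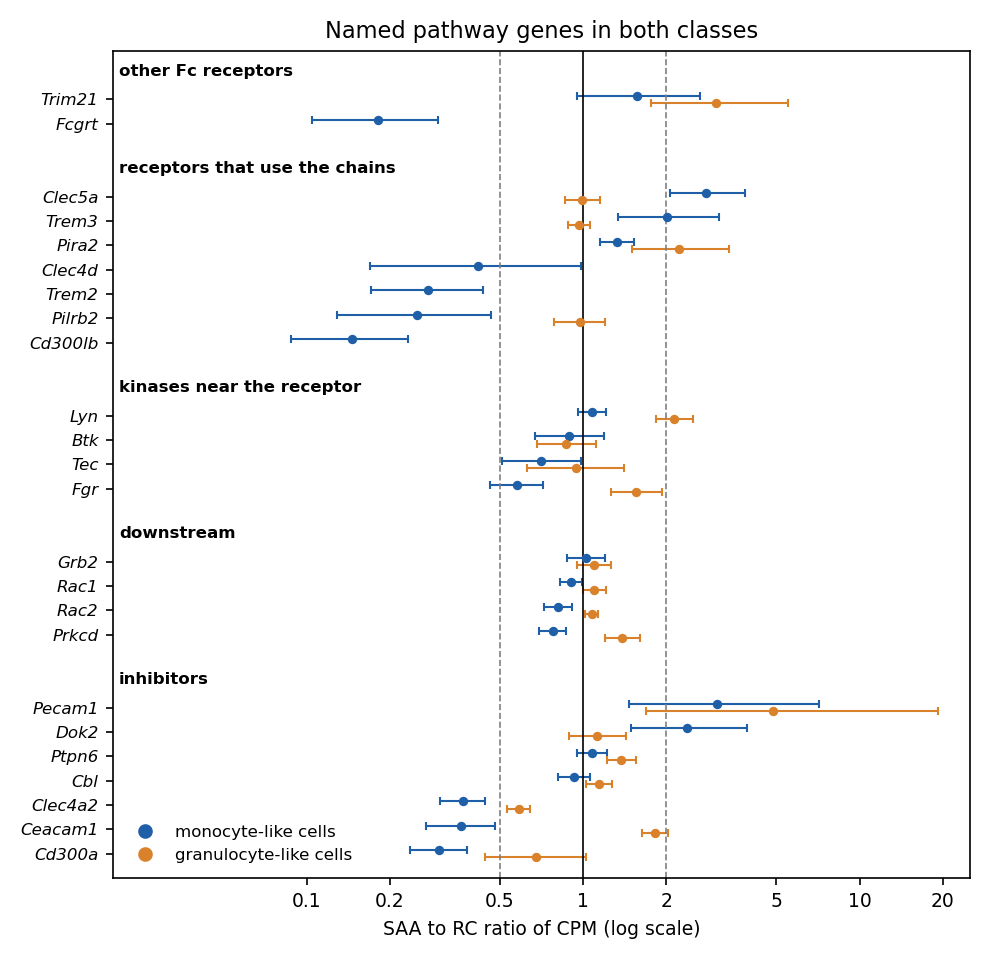
SAA to RC ratio of CPM (log axis) of the named genes around the receptors in monocyte-like (blue) and granulocyte-like (orange) cells, with 95% counting intervals. The solid line marks 1 and the dashed lines 2-fold. The downstream genes drawn, the 4 with most UMIs, lie within the 2-fold lines. *Cd300lb*, *Fcgrt* and the inhibitory receptors *Cd300a*, *Ceacam1* and *Clec4a2* lie left of 2-fold in monocyte-like cells, and *Lyn* lies right of it in granulocyte-like cells.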

How the data were processed

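The deposited values are raw UMI counts per gene and barcode, produced by the authors from Chromium 5′ libraries with Cell Ranger 6.0.1 on the mm10 build, per the labels and methods. They hold called cells without normalization. Counts of the 2 libraries (4066589 and 5592265 UMIs in RC and SAA) were summed per class over barcodes with at least 1000 genes and scaled to CPM. CPM carry exact Poisson, ratios exact conditional binomial and shares exact Clopper-Pearson 95% intervals, all of which cover counting error only. A gene at 0 UMIs in 1 library was set against a floor of 3 UMIs, and a share of 0 cells was given the limit that 3 cells set. UMI counts from 5′ ends are not scaled by length, so levels were compared between cells and not between genes. Cells counted as cycling with at least 10 UMIs of 12 cycle genes per 10000. No doublet caller was run. Barcodes with genes of both classes, and the 2% with most UMIs, were left out as alternatives. No paired analysis was possible because each group is 1 library.

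The members and lists were chosen with earlier results of these data known, and 1 gene of the lists is not reported here and was left out of their counts. Named are the 7 genes, per list the 4 genes with most UMIs and up to 6 called in monocyte-like cells, and the 3 genes nearest to each receptor. The promoter search and the per-cell combinations were chosen after the levels had been seen. Python 3.11.15, numpy 2.4.6, scipy 1.17.1, pandas 2.3.3 and matplotlib 3.10.9 were used, and edgeR 4.0.16 gave TMM factors only. On simulated counts the interval included the simulated ratio in 96.2% of 8462 genes left unchanged in monocyte-like and 96.0% of 8612 in granulocyte-like sums. At 2-fold up and down, with 50 genes each, it did so in 88% and 90% in monocyte-like and 96% and 100% in granulocyte-like sums. Of these genes 44% and 42%, and 54% and 42%, were called, so a gene not called can differ 2-fold. The counts were drawn as Poisson, which the interval assumes, so this does not bear on spread between cells or mice. Of the genes, 30934 matched GENCODE M21 by identifier, and promoters came from RefSeq for 6 of 7 genes, with *Tyrobp* not found there.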

Additional observations from a re-analysis of the deposited data

Results flagged for a closer look

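The direction of *Syk* differed between the classes, at an SAA to RC ratio of 0.753 (0.622–0.912) in monocyte-like and 1.31 (1.11–1.56) in granulocyte-like cells, which were taken from the same libraries. This difference was not tested, since there was 1 library per condition.

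A signal appeared in the barcodes under 1000 genes, which above entered only the alternative with no filter on barcodes. *Fcgr1* had 5 UMIs in the 136 such barcodes of RC and 11 in the 96 of SAA, a ratio of 3.52 (1.13–12.9). The chains were lower there in SAA, *Tyrobp* at 0.370 (0.307–0.442) and *Fcer1g* at 0.467 (0.378–0.573). *Fcgr4*, at 2.24 (0.925–5.63), *Fcgr3*, *Fcgr2b* and *Syk* had intervals that include 1.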

How the results depend on the processing

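No called gene ratio and no activating to inhibitory change turned direction in any alternative. The sign did turn for 2 ratios with intervals that include 1, *Fcgr2b* in monocyte-like cells (-0.20 to 0.17 on the log2 scale) and *Fcer1g* in granulocyte-like cells (-0.14 to 0.018). Of the gene ratios 156 of 167 alternative values stayed within their counting interval, as did 16 of 20 changes of the receptor balance. In monocyte-like cells a filter of 1500 genes and 10% mitochondrial UMIs gave log2 ratios of -0.35 for *Fcer1g*, -0.93 for *Tyrobp* and -0.13 for *Syk*. Thinning gave 0.081 for *Fcgr3*, -0.27 for *Fcer1g* and 0.93 for the balance. Without mixed barcodes *Fcer1g* stood at -0.33, and *Tyrobp* stood at -0.96 with TMM factors and -0.95 with the median of gene ratios set to 1. The balance was 0.84 without *Fcgr1* and 0.40 with *Fcgr3* alone. In granulocyte-like cells thinning gave 2.36 for *Fcgr1* against the floor and -0.097 for *Fcer1g*, and the balance with *Fcgr3* alone was 0.96. There *Fcer1g* was -0.14 without barcodes marked by macrophage genes, a list of which *Vcam1* held most UMIs in these cells. Over all lists, leaving out those barcodes gave 2 genes called higher in monocyte-like cells. In granulocyte-like cells thinning gave 2 and a minimum of 50 UMIs 5 called higher, and those called lower numbered 0 under thinning, under the filter of 1500 genes and at a minimum of 50 UMIs, and 3 with no minimum. The filter, thinning and the UMI minimum leave fewer cells, UMIs or genes, and otherwise the cause was not tested. The alternatives without macrophage-marked barcodes and without the 20 least alike genes in the totals were chosen after seeing the data. *Fcgr4* of RC rests on 9 UMIs in monocyte-like cells, which limits its ratio.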
